A study of Mus musculus with 25 samples.

Results

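Activity-dependent immediate early genes are switched on within minutes of synaptic input, before any new protein has been made. This account follows 10 of them, Fos, Fosb, Junb, Egr1, Egr3, Arc, Npas4, Nr4a1, Homer1 and Bdnf. They were picked by name, with earlier results of these data known. All 10 had a row among the 24411 genes of each of 3 tables of RNA from hippocampal nuclei of mice, sorted with the neuronal antigen NeuN. Calcium entry through NMDA receptors and voltage-gated channels activates kinases that act on CREB, SRF and MEF2, factors already bound at the promoters of these genes. Fos, Fosb and Junb form the AP-1 transcription factor, Egr1 and Egr3 are zinc finger factors, Npas4 is a bHLH-PAS factor that responds to calcium in neurons, and Nr4a1 is an orphan nuclear receptor. Arc removes AMPA receptors from synapses, the short form of Homer1 uncouples metabotropic glutamate receptors from their scaffold, and Bdnf encodes a secreted neurotrophin. In the hippocampus these genes mark recently active neurons.

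All mice were male C57BL/6 mice. The aging experiment held 3 libraries of young wild-type mice (3 months) and 2 of aged wild-type mice (18 months). In the overexpression experiment, young mice of 3 months received, in CA1 and the dentate gyrus, a virus in which the neuronal synapsin-1 promoter drives either Ftl1 with eGFP (Ftl1 OE, 7 libraries) or eGFP alone (GFP control, 5 libraries). In the knockdown experiment, aged mice of 18 months received a virus with a short hairpin RNA against Ftl1 (Ftl1 KD, 4 libraries) or against luciferase (shLuc control, 4 libraries). Ftl1 encodes the light chain of ferritin, and the injected groups share surgery and a virus that the aging mice lack. Mice were perfused under ketamine and xylazine, and no stimulus that would induce these genes is named for them in the sources used here. The sort took NeuN+ nuclei whether or not they carried virus. Nothing in the labels says that each injected library came from its own mouse, so p-values measure the spread between libraries.

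Library depth and checks differed between the 3 experiments. Libraries held 7969282 to 9537872 reads in aging, 9943996 to 17034325 in overexpression and 48902 to 358560 in knockdown. Ftl1 averaged 4259 ± 17.7 normalized counts (SD, n = 2) in aged and 1917 ± 228 (n = 3) in young libraries. Against the labels, Ftl1 averaged 5968 ± 1251 (n = 7) in the libraries labelled Ftl1 OE and 11515 ± 9579 (n = 5) in GFP controls, and 118 ± 15.01 (n = 4) in those labelled Ftl1 KD and 43.8 ± 13.7 (n = 4) in shLuc controls. Among the GFP controls, 9905 held 28309 normalized counts of Ftl1 and the fewest genes with a read (12281), and the others held 4580.4 to 9953. In the knockdown table the shLuc controls held 250 to 572 normalized counts of the nuclear RNA Malat1, against 77.9 to 143 in Ftl1 KD libraries. Endothelial markers were at or near 0 in that shallow table, with 3 of 5 (Pecam1, Flt1 and Kdr) at 0 in every library. Neuronal markers were present throughout. Glial markers were abundant in the overexpression table. Mbp of oligodendrocytes averaged 23101 normalized counts in GFP controls and 27420 in Ftl1 OE libraries, and Aldoc of astrocytes 16180 and 17251. The neuronal Syp averaged 29461 and 24663 there, and Syt1 12105 and 11264. These libraries thus do not hold neuronal RNA alone, and the share of glial nuclei was not tested.

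Of the 10 genes, 7 had an entry in the RefSeq promoter table (build GRCm38.p6), with 14 windows in all. Motifs were read on both strands of each whole window, which runs from 250 bases before a transcription start to a short stretch after it. All matches lay before the start, and only that portion is printed. Windows of 4 genes that hold at least 1 of these motifs and overlap no annotated exon are shown, since Junb had the highest r with Arc between libraries, Fos and Homer1 had r near or below 0 with it, and Nr4a1 holds the most motifs. Capitals mark TGACG, a truncated form of the CRE element to which CREB binds, in either orientation, and in Nr4a1 also the EGR site, the element of Egr1 and Egr3.
Fos, chr12:85473640-85473889, plus strand: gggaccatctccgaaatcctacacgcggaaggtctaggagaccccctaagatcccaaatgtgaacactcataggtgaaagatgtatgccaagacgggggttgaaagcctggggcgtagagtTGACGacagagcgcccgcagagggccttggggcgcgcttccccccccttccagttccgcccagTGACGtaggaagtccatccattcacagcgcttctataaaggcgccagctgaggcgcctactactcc
Junb, chr8:84978749-84978998, minus strand: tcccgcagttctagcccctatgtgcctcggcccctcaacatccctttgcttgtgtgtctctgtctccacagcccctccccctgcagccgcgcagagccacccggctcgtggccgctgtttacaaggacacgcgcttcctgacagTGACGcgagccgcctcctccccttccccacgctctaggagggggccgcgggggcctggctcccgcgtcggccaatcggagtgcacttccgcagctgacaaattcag
Nr4a1, chr15:101266596-101266845, plus strand: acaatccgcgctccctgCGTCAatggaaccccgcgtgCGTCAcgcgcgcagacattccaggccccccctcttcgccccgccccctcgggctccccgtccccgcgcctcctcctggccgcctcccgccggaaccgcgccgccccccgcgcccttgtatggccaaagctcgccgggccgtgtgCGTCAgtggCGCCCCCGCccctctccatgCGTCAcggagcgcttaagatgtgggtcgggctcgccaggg
Homer1, chr13:93303507-93303756, plus strand: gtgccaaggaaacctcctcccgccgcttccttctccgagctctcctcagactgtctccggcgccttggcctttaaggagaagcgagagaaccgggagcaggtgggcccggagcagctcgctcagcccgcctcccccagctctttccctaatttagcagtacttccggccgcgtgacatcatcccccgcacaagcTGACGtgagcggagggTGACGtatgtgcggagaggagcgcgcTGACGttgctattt

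The short CRE lies in 20.8% of all 32851 windows of the same length. Counted from the start, it began at bases -129 and -66 in Fos, at -106 in Junb, at -60 in Fosb and at -179 and -169 in Npas4. Nr4a1 held it 4 times, at -233, -213, -69 and -40, and the first Homer1 window 3 times, at -56, -40 and -14. In Bdnf, which has several promoters, 1 of 7 windows held it, at -35. The whole CRE (TGACGTCA, in 1.79% of windows), which contains the short CRE on each strand, and the CArG box of SRF (in 1.63%) were in none of the 14 windows. Arc, Egr1 and Egr3 had no window, and sites farther than 250 bases before a start were not looked for. The EGR site (GCGTGGGCG or GCGGGGGCG, in 3.47%) was in the windows of Fosb and Nr4a1, and the AP-1 site (TGANTCA, in 7.81%) in 1 Bdnf window.

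The levels of the genes followed nearly one order in the groups of the 2 deep tables. Levels are given here as normalized counts per kilobase of annotated exon (GENCODE M21, build GRCm38, which is mm10), a scale that allows genes to be compared. Per kilobase of the longest transcript instead, the order was the same in the overexpression table. In the aging table Bdnf then ranked above Egr1 in both groups. Homer1 ranked above Npas4 in young and above Npas4 and Egr3 in aged libraries on that scale. Arc (15:74669083-74672570, minus strand) was the highest in each group, with 1059 ± 429 (SD, n = 3) in young, 743 ± 268 (n = 2) in aged, 1398 ± 736 (n = 5) in GFP control and 1444 ± 310 (n = 7) in Ftl1 OE libraries. In the overexpression table Junb (8:84974484-84978718) followed with 1049 ± 617 in GFP controls and 853 ± 241 in Ftl1 OE, and Egr1 (18:34859823-34864984) with 861 ± 430 and 573 ± 109. The ranges of these neighbours overlapped, but Arc was above Junb and Junb above Egr1 in all 5 and all 7 libraries. Nr4a1 (15:101254269-101274795) came next, with 301 ± 84.3 and 267 ± 69.7, below the lowest Egr1 value in both groups.

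Bdnf (2:109674700-109727007), Fos (12:85473890-85477273), Npas4 (19:4984355-4990316) and Egr3 (14:70077203-70082614) formed the middle of the order, with overlapping ranges in GFP controls, where they had 174 ± 114, 153 ± 49.6, 110 ± 92.1 and 100.2 ± 79.7 per kilobase. Homer1 (13:93299635-93405129) was below them at 30.7 ± 15.2, and its range overlapped that of Egr3. Fosb (7:19302696-19310051) was the lowest in every group, at 3.94 ± 3.56 in GFP controls, and every Homer1 value lay above every Fosb value. In the aging table Nr4a1 ranked second, at 415 ± 158 in young and 462 ± 206 in aged libraries, and its range overlapped that of Junb, at 401 ± 95.9 and 445 ± 155. Tables were normalized separately, so levels are not compared between them. Homer1 values sum its short, induced form and its long, constitutive ones, and Bdnf values sum transcripts from all its promoters. Exons of Junb overlap those of Prdx2 on the other strand and exons of Bdnf those of the antisense gene Gm45346. The labels describe strand-specific libraries and the study's methods a protocol that keeps no strand, so reads of these partners may not be separable.

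The first comparison asked whether the genes differ between young and aged neurons. No gene of the 10 passed the test with age, and 9 of 10 had groups that overlapped. Npas4 was the exception, with 208, 165 and 209 normalized counts in young libraries 1, 2 and 3 and 251 and 232 in aged libraries 2 and 3. Its log2 fold change on the log2(normalized count + 1) scale was 0.32 (SE 0.42), with an adjusted p of 0.861 by limma and an exact two-sided permutation p of 0.1, the smallest that 10 splits allow. Groups did not overlap in this direction for 12.2% of the 13712 genes tested, and for 12.5% in the other.

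**Figure D1:**
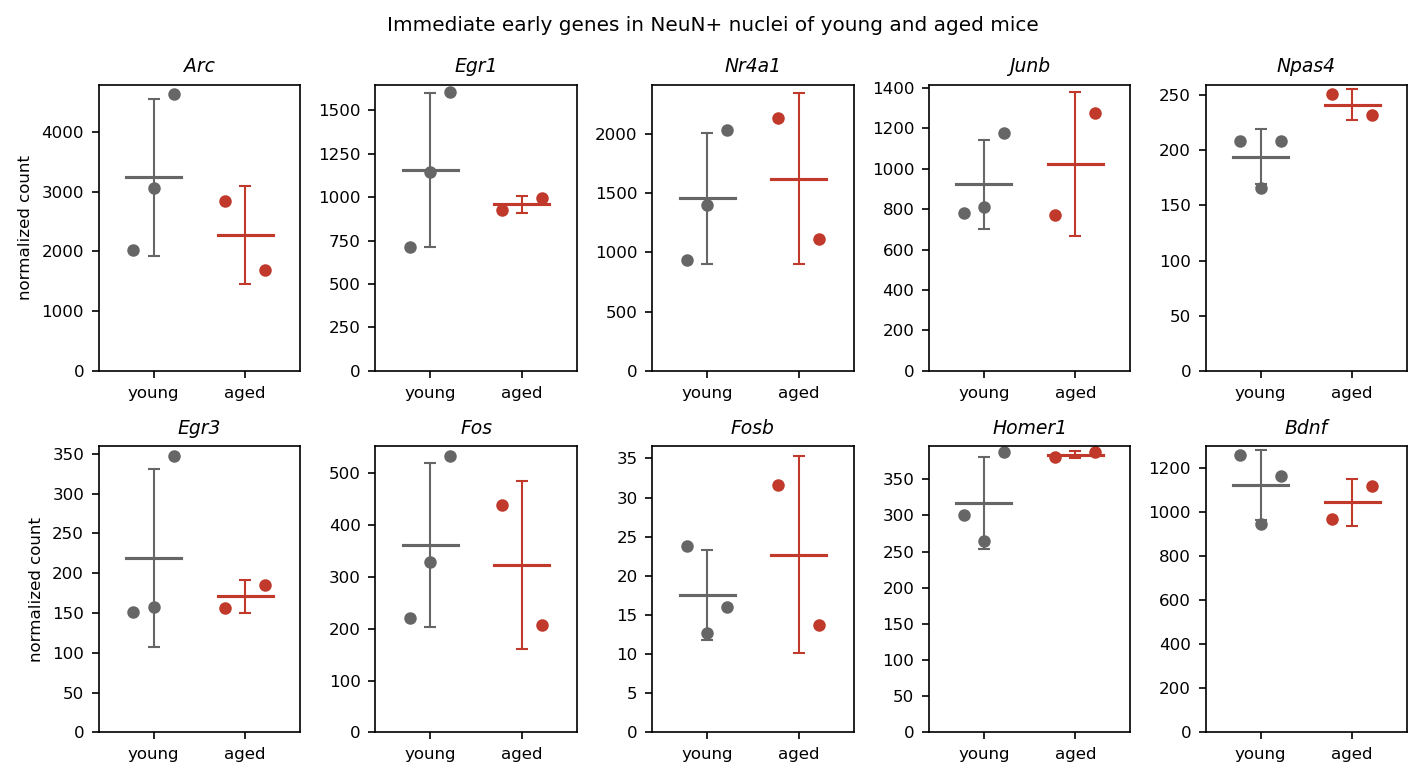
Normalized counts of the 10 genes in the 3 young (grey) and 2 aged (red) libraries, one panel per gene with a linear axis from 0. Points are libraries, horizontal lines group means and vertical bars SD, and Npas4 is the gene whose aged points both lie above all young ones.

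Among the other transcription factors, Fos held 221, 329 and 533 normalized counts in young and 438 and 208 in aged libraries. Junb held 783, 809 and 1178 in young against 772 and 1277 in aged libraries, so that both extremes came from the aged pair. Fosb had 23.9, 12.7 and 15.97 against 31.6 and 13.8. For each of these AP-1 genes the aged pair lay on both sides of the young mean. Egr1 held 715, 1145 and 1603 in young and 924 and 992 in aged libraries, and Egr3 151, 158 and 348 against 156 and 186. Nr4a1 ran from 933 through 1398 to 2037 in young libraries, with 2133 and 1111 in aged ones. The Egr genes were close together in the aged pair, while the Nr4a1 values of that pair were nearly as far apart as the young extremes.

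Arc, the most abundant of the effectors, held 2028, 3053 and 4634 normalized counts in young and 2851 and 1693 in aged libraries. Its log2 fold change of -0.48 (SE 0.36) was the largest in size of the 10 and had an adjusted p of 0.741. Homer1 held 301, 264 and 388 in young and 381 and 388 in aged libraries, and Bdnf 1260.0, 948 and 1163 against 969 and 1121. Young library 3 was the highest young library for 8 of the 10 genes, and the young libraries covered the aged values of Egr1, Egr3, Homer1 and Bdnf. Over the 10 genes, 5 log2 fold changes were above and 5 below 0, with a median of 0.016 against -0.025 over all genes tested. Adjusted p-values of limma ran from 0.741 to 0.963, 0 of 10 had an unadjusted p of 0.05 or less, and edgeR and DESeq2 on the recovered reads called 0 of 10. limma called 0% of all genes in either direction here, and 5.04% of them were lower and 2.9% higher at an unadjusted p of 0.05 or less.

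The second comparison asked whether Ftl1 delivered to young neurons alters these genes. In libraries labelled Ftl1 OE none of the 10 passed the test, and all 10 had overlapping groups, against 0.411% of the 14099 genes tested with non-overlapping groups in the lower and 0.17% in the higher direction. limma called 0% of all genes lower and 0% higher, with 3.66% and 3.6% at an unadjusted p of 0.05 or less. The median log2 fold change was -0.064, with 5 genes above and 5 below 0, against 0.095 over all genes. Adjusted p-values ran from 0.680 to 0.994, 0 genes had an unadjusted p of 0.05 or less, and edgeR called 0 of 10. DESeq2 called 0 of the 6 genes to which it gave an adjusted p, and gave none to Fos, Fosb, Npas4 and Homer1.

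**Figure D2:**
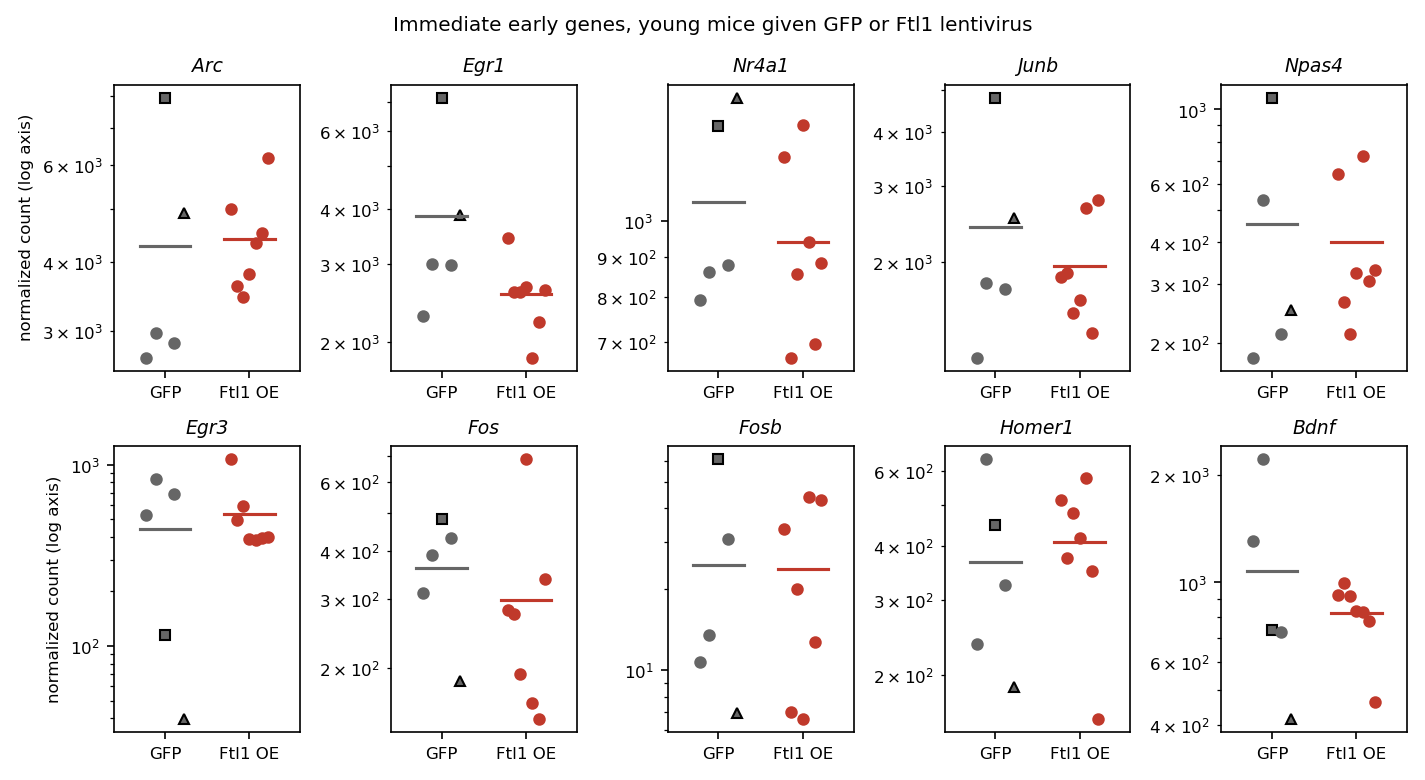
Normalized counts of the 10 genes in 5 GFP control (grey) and 7 Ftl1 OE (red) libraries on log axes, one panel per gene, with horizontal lines at group means. The square is GFP control 9905, highest in Arc, Egr1, Junb, Npas4 and Fosb, and the triangle GFP control 9926, lowest in Egr3 and Bdnf.

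Egr1 came nearest to a difference. GFP controls 9901, 9904, 9905, 9925 and 9926 held 2292, 2999, 7161, 2984 and 3871 normalized counts, and the 7 Ftl1 OE libraries ran from 1842 through a median of 2595 to 3443. The log2 fold change was -0.49 (SE 0.25, adjusted p = 0.680, limma), and the exact two-sided permutation p for the mean was 0.049, the smallest of the 10 genes and not adjusted for them. Without GFP control 9905 the log2 fold change fell to -0.24 (SE 0.19, adjusted p = 0.956).

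Among the AP-1 genes, Junb held 1202, 1794, 4810.2, 1732 and 2535 normalized counts in the same controls and 1372 to 2793 (median 1848) in Ftl1 OE libraries. Fos held 311, 390, 484, 431 and 184 in controls, and 147 to 689 (median 275) in Ftl1 OE. Its highest value, in Ftl1 OE 9915, was above all controls, while 3 Ftl1 OE libraries held 192 or less. Fosb, with 10.7, 13.5, 60.9, 30.9 and 6.96 in controls and 6.58 to 44.2 (median 20.02) in Ftl1 OE, varied the most of the 10 relative to its mean, with a coefficient of variation of 74.6% over the 12 libraries. Nr4a1 varied the least, at 26.4%, with 793, 859, 1317, 878 and 1433 in controls and 669 to 1323 (median 884) in Ftl1 OE.

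Egr3 gave the largest log2 fold change, 0.88 (SE 0.63, adjusted p = 0.731), and that value was set by a pair of controls. GFP controls 9905 and 9926 held 115 and 39.4 normalized counts of Egr3, and the other 10 libraries between 384 and 1075. The other controls held 529, 838 and 685, and the Ftl1 OE libraries 384 to 1075 with a median of 397. Those 2 controls also had the lowest Malat1 of the table (23359 and 32204 normalized counts, against 44897 to 218074 in the Ftl1 OE libraries), and 9926 had the largest share of reads on the ribosomal precursor Rn45s, 4.98%. The part of these features in the Egr3 values was not tested. Without both controls Egr3 had a log2 fold change of -0.44 (SE 0.32, adjusted p = 0.838).

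Npas4 held 181, 537, 1086, 213 and 252 normalized counts in GFP controls and 213 to 727 (median 324) in Ftl1 OE libraries. Arc held 2682, 2974, 7961, 2851 and 4906 in controls and 3453 to 6181 (median 4331) in Ftl1 OE. Here 3 controls lay below and 1 above every Ftl1 OE value. Homer1 held 236, 640.5, 448, 325 and 187 in controls and 157 to 579 (median 418) in Ftl1 OE. Bdnf held 1305, 2209, 736, 728 and 415 in controls and 463 to 994 (median 830.0) in Ftl1 OE, with GFP controls at both ends of the range.

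Removing GFP controls 9905 and 9926 together, an alternative chosen after seeing the data, left 0 of 10 genes called. Arc then had a log2 fold change of 0.61 (SE 0.19, adjusted p = 0.836) in place of 0.16 (SE 0.26, adjusted p = 0.876), Bdnf -0.68 (SE 0.31) in place of -0.19 (SE 0.34), and Junb, Nr4a1 and Egr3 changed sign.

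The third comparison asked what the hairpin against Ftl1 does to these genes in aged neurons. In libraries labelled Ftl1 KD, Arc and Egr1 were lower than in shLuc controls and passed the test, and they were the only members of the 10 with a mean of at least 10 normalized counts over the 8 libraries. Both reached that limit through the controls, where they averaged 29.1 and 21.6 normalized counts, against 5.00 and 7.12 in Ftl1 KD libraries. The limit thus let in genes, here and in the lists below, that are high in a single group, and the calls are not independent of it. limma called 13.7% of the 1460 genes tested lower and 10.5% higher. Arc held 25.5, 38.3, 11.2 and 41.4 normalized counts in shLuc controls 1, 2, 3 and 5, and 2.88, 5.41, 7.29 and 4.41 in Ftl1 KD libraries 1, 3, 4 and 5. All Ftl1 KD values lay below all control values, as for 11.9% of the genes tested, with 11.8% apart in the other direction. The log2 fold change of Arc was -2.23 (SE 0.43, adjusted p = 5.4e-04, limma), and the exact two-sided permutation p was 0.029, the smallest that 70 splits allow.

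**Figure D3:**
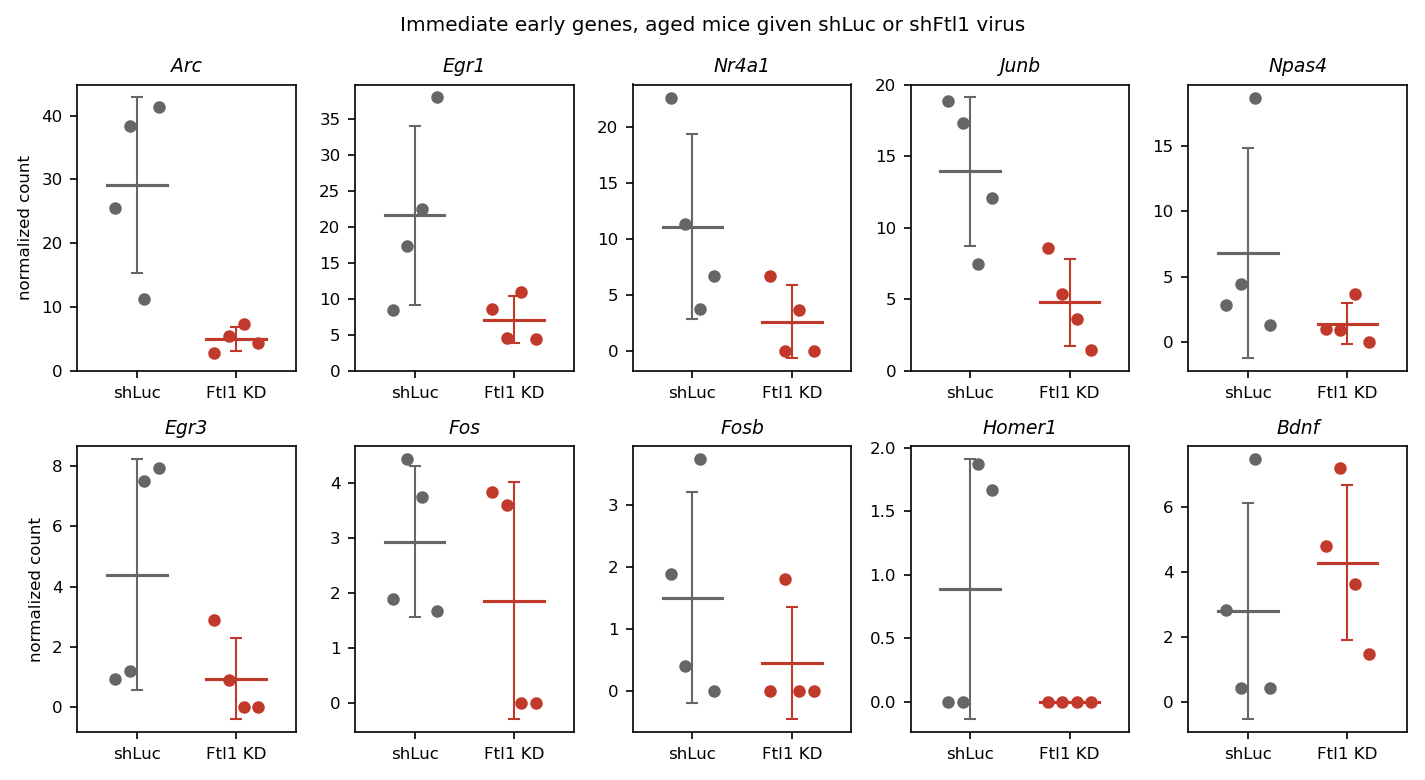
Normalized counts of the 10 genes in 4 shLuc control (grey) and 4 Ftl1 KD (red) libraries of aged mice, one panel per gene with a linear axis. Points are libraries, horizontal lines group means and vertical bars SD, and Arc is the gene whose 4 Ftl1 KD points all lie below the 4 control points.

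Few reads stand behind these values. Arc rested on 27, 95, 6 and 99 reads in the controls and on 3, 6, 4 and 3 in the Ftl1 KD libraries. Between libraries of like depth, control 1 (103394 reads, 31.9% of them on Rn45s) held 27 Arc reads and Ftl1 KD 1 (97104 reads, 34.5% on Rn45s) held 3. The other controls had 49.4% to 55.3% of reads on Rn45s, against 30.3% to 34.5% in all Ftl1 KD libraries, and the part of this difference was not tested. Control 3 (68092 reads, 52.9% on Rn45s) held 6 Arc reads, as did Ftl1 KD 3 (96831 reads, 30.4% on Rn45s). Of Egr1, control 1 and Ftl1 KD 1 held 9 reads each. Leaving out any 1 library kept the Arc call, with log2 fold changes from -2.61 to -2.02. Without controls 2 and 5 together, the deepest pair at 358560 and 318645 reads, Arc had a log2 fold change of -1.64 (SE 0.66, adjusted p = 0.116) and was no longer called.

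Egr1 held 8.49, 17.3, 22.5 and 38.0 normalized counts in controls and 8.63, 4.51, 10.9 and 4.41 in Ftl1 KD libraries. Control 1 lay within the Ftl1 KD range and the other controls above it. Its log2 fold change was -1.39 (SE 0.44, adjusted p = 0.023, limma), and edgeR and DESeq2 on the recovered reads gave adjusted p-values of 0.0077 and 0.015. The exact two-sided permutation p of Egr1 was 0.086. The limma call was lost without control 2 (adjusted p = 0.053), without control 5 (0.153), without Ftl1 KD 3 (0.061), without Ftl1 KD 5 (0.056), and without controls 2 and 5 together (0.321).

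The other 8 genes were below the limit and are given from the fit over all 13393 genes with a read. Nr4a1 held 22.7, 11.3, 3.74 and 6.69 normalized counts in controls and 6.71, 0, 3.64 and 0 in Ftl1 KD libraries. It was called there, with a log2 fold change of -2.05 (SE 0.59, adjusted p = 0.024 by limma and 0.040 by edgeR). Its groups overlapped, and its exact two-sided permutation p was 0.086. The share of all genes called in that fit is not given here. Junb held 18.9, 17.3, 7.49 and 12.1 in controls against 8.63, 5.41, 3.64 and 1.47, where only control 3 lay within the Ftl1 KD range, and did not pass (log2 fold change -1.46, SE 0.47, adjusted p = 0.064). The exact two-sided permutation p of Junb was 0.057.

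Egr3 had 1, 3, 4 and 19 reads in controls and 3, 1, 0 and 0 in Ftl1 KD libraries, and Npas4 had 3, 11, 10 and 3 against 1, 1, 2 and 0. Fos had 2, 11, 2 and 4 reads in controls against 4, 4, 0 and 0, and Fosb 2, 1, 2 and 0 against 0, 2, 0 and 0. None of these 4 genes passed, and their adjusted p-values lay between 0.339 and 0.660. Homer1 had 0, 0, 1 and 4 reads in controls and 0 in each Ftl1 KD library. Bdnf was the only gene with the higher mean in Ftl1 KD libraries, at 4.28 ± 2.39 normalized counts (SD, n = 4) against 2.79 ± 3.34 (n = 4), and it did not pass (adjusted p = 0.629). In 17 of the 80 values of the 10 genes in these libraries there was no read.

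Markers of cell types were called in the same libraries. Of 6 oligodendrocyte markers 2 were tested and both fell, Mbp with a log2 fold change of -1.87 (SE 0.35) and Cnp with -1.88 (SE 0.70), and the summed level of the list ran from 36.8 to 93.6 normalized counts in controls and from 10.9 to 21.6 in Ftl1 KD libraries. C1ql2, the 1 dentate granule cell marker of 6 that was tested, fell by 1.49 on the log2 scale (SE 0.31), with the summed list at 35.6 to 83.1 against 13.2 to 30.7 and Tdo2 at 0 in every library. Slc17a7, the vesicular glutamate transporter of excitatory neurons, fell by 1.35 (SE 0.46), 1 of 2 tested of a list of 5 whose sum ran from 91.8 to 140.4 against 82.3 to 92.9. Of 5 CA1 markers 3 were tested and Fibcd1 fell, with the sum at 52.4 to 89.5 against 34.5 to 66.1, and 0 of 1 tested of 5 CA3 markers passed (31.8 to 81.2 against 27.9 to 39.7). Gad1, the GABA-synthesizing enzyme of interneurons, rose by 1.49 (SE 0.36), 1 of 2 tested, with its list of 6 at 23.8 to 64.1 against 50.8 to 73.5. Slc1a3, the glutamate transporter of astrocytes, rose by 2.05 (SE 0.39), 1 of 2 tested, with its list of 6 at 28.1 to 60.1 against 59.5 to 69.2. Other astrocyte means fell from controls to Ftl1 KD libraries, Gfap from 10.98 to 4.80 and Aldoc from 22.8 to 18.3. Likewise Sst (18.7 to 14.1) moved against Gad1, Neurod6 (4.64 to 8.13) against Slc17a7 and Mpped1 (12.9 to 22.4) against Fibcd1. Gad2 (4.68 to 13.98), Camk2a (84.5 to 61.5) and Wfs1 (23.0 to 17.1) moved with them. Single genes thus do not stand for their lists. The general neuronal markers Syp and Eno2 fell and Tubb3 rose, 3 of 5 tested, with the summed list of 6 at 325 to 401 against 301 to 376. Of 4 oligodendrocyte precursor markers 1 was tested and did not pass (sums of 2.09 to 16.9 against 16.3 to 29.1), and no microglial marker of 7 was tested (1.89 to 16.1 against 1.47 to 11.5). With age and in overexpression 0 markers of any of these lists passed. Since limma called 0% of all genes there, that count cannot show whether the mix of cell types shifted. In overexpression, 4 of 7 microglial markers were lower with a limma p of at most 0.05 before adjustment, and 0 were higher. So were 2 of 6 interneuron markers, with 0 higher. Median log2 fold changes of these lists were -1.13 and -0.54. With age no list held more than 1 such marker in either direction. The part of the knockdown shifts in the Arc and Egr1 values was not tested. In bulk nuclei fewer cells of a type and less RNA per cell cannot be told apart.

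**Figure D4:**
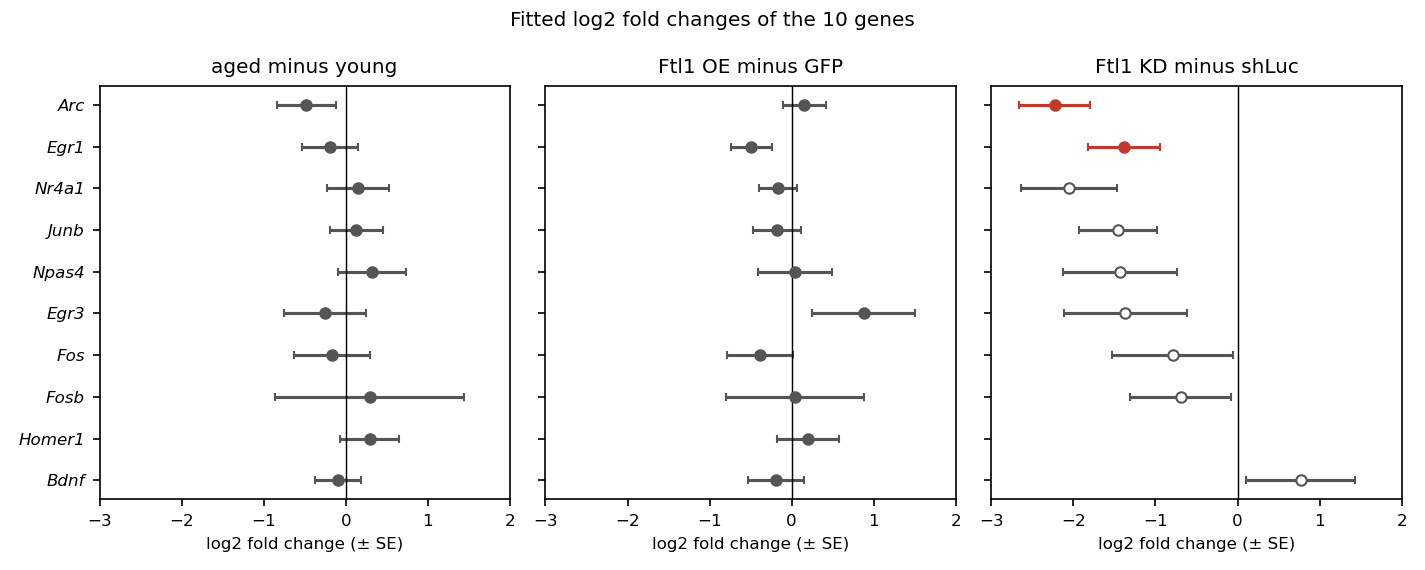
Fitted log2 fold changes (points) with SE (bars) of the 10 genes in the 3 comparisons on one scale. Red points passed the test (Arc and Egr1 in Ftl1 KD), filled points were tested, open points come from the fit without a limit on the mean, and Homer1 in Ftl1 KD, with 0 reads in that group, has no point.

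Genes that act around the 10 were counted in 5 lists. Of 18 other activity-induced transcription factors, 14 were tested with age, 16 in overexpression and 1 in knockdown, and 0 passed in each. Jun, the partner of Fos, held 1074 ± 99.5 normalized counts (n = 3) in young and 1315 ± 224 (n = 2) in aged libraries, 3392 ± 899 (n = 5) in GFP control and 3240 ± 487 (n = 7) in Ftl1 OE libraries, and 12.3 ± 9.16 and 9.05 ± 2.75 (n = 4 each) in shLuc control and Ftl1 KD libraries. Of 19 activity-induced signalling genes, 0 of 17 passed with age, 0 of 18 in overexpression and 1 of 2 in knockdown. That gene was Rasgrp1, an activator of Ras, which fell from 16.4 ± 7.50 to 4.59 ± 1.46 normalized counts (log2 fold change -1.55, SE 0.54, adjusted p = 0.034). Plk2, a kinase of activated synapses and the most abundant of this list with age, held 5149 ± 1651 normalized counts in young and 2250 ± 294 in aged libraries, and did not pass (log2 fold change -1.14, SE 0.32, adjusted p = 0.441). Of these 2 lists with age, 1 and 3 genes had an unadjusted p of 0.05 or less in the lower direction and 0 and 1 in the higher.

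Of 12 activity-induced secreted and synaptic genes, 12 were tested with age and in overexpression and 0 passed. In knockdown 3 were tested and 1, Nptx1, passed. Nptx1, a pentraxin that gathers AMPA receptors, held 103 ± 25.4 normalized counts in shLuc controls and 45.6 ± 8.29 in Ftl1 KD libraries (log2 fold change -1.14, SE 0.24, adjusted p = 0.0014). Its means were 7872 ± 1640 in young and 10350.2 ± 4222 in aged libraries, and 8549 ± 2085 in GFP control and 12003 ± 2126 in Ftl1 OE libraries, with adjusted p-values of 0.797 and 0.619.

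Of 26 upstream signalling and transcription factor genes all were tested with age and in overexpression and 0 passed, while 3 of 10 tested fell in knockdown and 0 rose. Those were the NMDA receptor subunits Grin1, with 54.8 ± 9.98 normalized counts in controls and 20.2 ± 3.92 in Ftl1 KD libraries (log2 fold change -1.39, SE 0.27, adjusted p = 5.4e-04), Grin2a, with 22.3 ± 10.7 and 6.84 ± 1.69 (-1.48, SE 0.40, adjusted p = 0.0083), and Grin2b, with 27.8 ± 4.49 and 12.2 ± 6.38 (-1.24, SE 0.35, adjusted p = 0.011). The kinase gene Camk2a did not pass, at 84.5 ± 19.1 and 61.5 ± 5.41 (adjusted p = 0.170). Of 16 partners of the products, 16 were tested with age, 15 in overexpression and 3 in knockdown. In knockdown 1 of them, Sort1, a sorting receptor of Bdnf, fell from 29.5 ± 2.80 to 13.3 ± 7.91 (adjusted p = 0.010), and none passed in the other comparisons, where 1 and 0 had an unadjusted p of 0.05 or less. Ntrk2, the receptor of Bdnf, held 43.6 ± 4.98 and 41.2 ± 15.02 normalized counts in knockdown (adjusted p = 0.743). The medians of the 5 lists in overexpression ran from -0.0072 to 0.21, around the 0.095 of all genes.

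Whether the genes rose and fell together from library to library was asked in the overexpression table, which holds 12 libraries. Pearson's r of log2 values was taken for all 45 pairs. The median r was 0.153, against 0.011 over all pairs of the 14099 genes. Above 0 were 31 of 45 pairs, 68.9%, against 50.82% of all gene pairs, and 13 pairs, 28.9%, reached 0.5 against 15.04%. At or below -0.5 were 4 of the 45 pairs, against 13.7% of all gene pairs. Without the 2 libraries farthest from the median of the first gene of each pair, 4 pairs, 8.89%, reached 0.5. Their median was then 0.207, with 75.6% of the 45 pairs above 0. No background without such libraries was computed, so the 8.89% cannot be set against 15.04%. With median centring 17 pairs, 37.8%, reached 0.5, and the median was 0.239. After subtracting group means instead the median was 0.152. Pairs that share a gene or a library are not independent, and none of the 45 passed the Benjamini-Hochberg adjustment of a permutation test with 100000 relabellings (11 had an unadjusted p of 0.05 or less). Adjusted p-values were at least 0.057 for r and 0.299 for Spearman's rho.

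Junb and Arc were the closest pair, with r = 0.81 (permutation p = 0.0013, adjusted p = 0.057) and Spearman's rho = 0.70 (permutation p = 0.014, adjusted p = 0.299). Without the 2 libraries farthest from the median of Junb r was 0.52, and without GFP control 9905 it was 0.66. Junb also rose with Npas4 (r = 0.70, rho = 0.68), Egr1 (r = 0.66, rho = 0.44), Fosb (r = 0.59, rho = 0.54) and Nr4a1 (r = 0.52, rho = 0.50), with permutation p-values of 0.011, 0.029, 0.040 and 0.083 before and at least 0.182 after adjustment. The Junb and Egr1 pair rested on 1 library, since r was 0.16 without GFP control 9905. That control held the highest value of 5 of the 10 genes, and leaving it out moved r the most in 23 of the 45 pairs, as leaving out GFP control 9926 did in 14.

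Homer1, Bdnf and Egr3 each had r below 0 with Junb and with Arc, while Homer1 had r = 0.54 with Npas4 (rho = 0.53, and 0.49 without the farthest 2 libraries). Bdnf had r = 0.65 with Homer1 (rho = 0.56) and r = 0.63 with Egr3 (rho = 0.59), with permutation p-values of 0.021 and 0.037 and an adjusted p of 0.182 for both. Without the farthest 2 libraries these fell to 0.23 and 0.50. Against Arc, r was -0.60 for Bdnf (rho = -0.55, permutation p = 0.038, adjusted p = 0.182, and -0.60 without the farthest 2 libraries), -0.53 for Egr3 (-0.27 without the farthest 2 libraries) and -0.16 for Homer1 (0.0063 without them). The r of Egr1 and Egr3 changed from -0.49 to 0.79 without the farthest 2 libraries. Fos ran with none of the others at 0.5 or above, its closest being Egr1 (r = 0.41). In the knockdown table no such r is given, because the groups of Arc do not overlap and each holds 4 libraries, and the aging table holds 5 libraries.

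**Figure D5:**
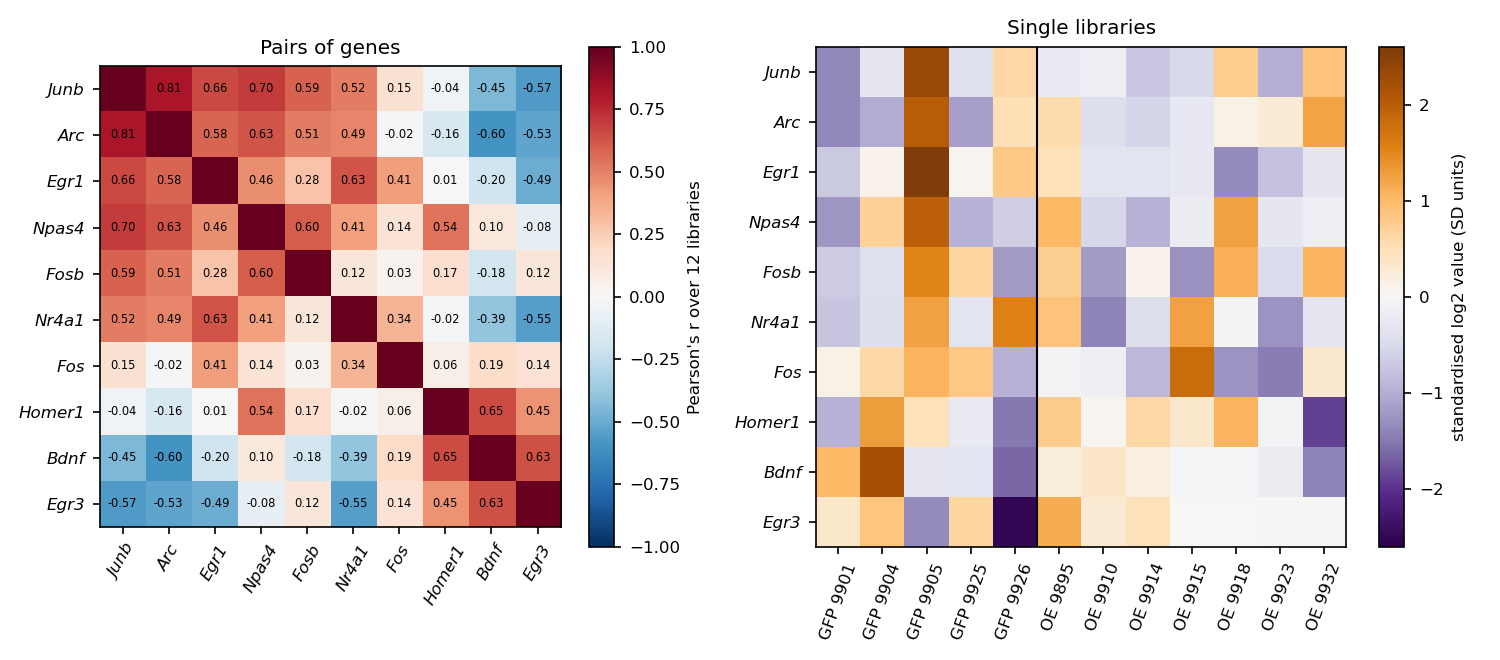
Left, Pearson's r of log2 values for each pair of the 10 genes over 12 libraries of the overexpression table, ordered after the values were seen. Right, the standardised log2 value of each gene in each library, with GFP controls left of the line, where GFP control 9905 is high in Junb, Arc, Egr1 and Npas4 and GFP control 9926 low in Egr3.

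The mean of the 10 standardised values, a score of the genes in each library, was highest in GFP control 9905 (1.16), followed by Ftl1 OE 9895 (0.56) and GFP control 9904 (0.36), and lowest in GFP control 9901 (-0.55), so that controls stood at both ends. Over the other 14089 genes, those most like this score over the 12 libraries were Slc25a51, which carries NAD into mitochondria (r = 0.91), A230050P20Rik (0.90), Jph4, a junctophilin of neurons (0.88), Crim1 (0.87), Gngt2 (0.86) and Fbxw2 (0.84). Without GFP control 9905 their r lay between 0.64 for Fbxw2 and 0.87 for Slc25a51. Among the 3 least like it were Clgn (-0.94) and Gal3st1, an enzyme of sulfatide synthesis (-0.92). These genes share their libraries and depth with the score and were taken as the extremes of 14089 values, and no p is given.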

How the data were processed

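RNA of NeuN+ nuclei was measured in 25 libraries of 3 experiments. Per the labels and the study's methods, the authors used STAR (build mm10), RSEM and DESeq2, and normalized each experiment on its own. The deposited values are a signal, namely reads per gene scaled by a size factor for each library. Dividing by the smallest step returned whole reads for 100% of values (tolerance 1e-06). The deposited tables also hold the authors' own fold changes and p-values, which were not used, and 0 library columns were left out. The release of the annotation is not given in the sources used here.

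Groups came from the labels. Values were tested as log2(normalized count + 1) with limma 3.58.1 (trend, no covariate) in R 4.3.3, over genes with a mean of at least 10, with Benjamini-Hochberg adjustment. A gene was called at an adjusted p of 0.05 or less, with age also at a log2 fold change of 0.5 or more in size. The log scale understates changes of low genes. edgeR 4.0.16 and DESeq2 1.42.0 on the recovered reads were alternatives, beside pseudocounts of 0.5 and 5, no limit and a limit of 100 on the mean, TMM scaling, median centring, left-out libraries and a replicate block. The scripts were tested on simulated data. Exact permutation tests were two-sided. Depth per library limits precision, and the SE and p-values of limma measure the spread between libraries.

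All 10 genes are named whatever their values, with the called and otherwise the 3 most abundant genes of 5 lists as a pool for examples, the 6 genes most and 3 least like the mean standardised value, Ftl1, Rn45s and marker lists. Of the 3 least like it, 1 is not reported here. Malat1 was added after its values were seen. Members and lists were chosen with earlier results of these data known. Promoter sequences are from RefSeq (GRCm38.p6) and exons from GENCODE M21.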

Additional observations from a re-analysis of the deposited data

Results flagged for a closer look

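Within groups of 4 to 10 libraries, 4 values stood far from the rest by Dixon's test at the 95% level, which chance passes in about 1 in 20 groups. The genes were examined group by group with no adjustment for the number of tests, so some such values arise by chance. Fos held 689 normalized counts in Ftl1 OE 9915, against 147 to 338 in the other Ftl1 OE libraries. Egr3 held 1075 in Ftl1 OE 9895, against 384 to 593 in the others. Bdnf held 463 in Ftl1 OE 9932, the lowest of that group, against 780.5 to 994. Fosb held 1.80 normalized counts in Ftl1 KD 3, which is 2 reads, against 0 in the other Ftl1 KD libraries. With the others tied at 0, any value above 0 would have been flagged.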

How the results depend on the processing

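Outside left-out libraries, 347 values under the alternatives were counted as the same, 14 as moved, 10 as reversed in sign and 3 as weaker. For single genes the same means direction and side of the threshold, for counts a like size and for medians a change within the spread between libraries. The median with age counted as the same though its sign changed, from 0.016 to -0.099 with a limit of 100 on the mean. The cause of the other changes was not tested except where named. With age, DESeq2 called 33 genes higher and 105 lower, and edgeR without a limit on the mean, added after seeing the data, 32 and 49, where limma called 0. In overexpression DESeq2 called 7 genes higher and 94 lower. No member of the 10 was called by any alternative in these 2 comparisons, where DESeq2 gave 4 of them no adjusted p in overexpression. In knockdown a limit of 100 on the mean left 12 genes called higher and 6 lower, no member being tested. Without shLuc controls 2 and 5 together, added after seeing the data, 70 were called higher and 42 lower with 0 members called, Arc at -1.64 and Egr1 at -0.96 with fewer samples.

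Between libraries with the same replicate number, the correlation of deviations from group means was -0.054 and 0.024 with age, and -0.034, -0.020 and -0.052 in knockdown. These values cannot decide whether libraries were paired, since groups held 2 to 4 libraries. With age the deviations of the 2 aged libraries mirror each other. With the replicate block, knockdown calls were 80 higher and 93 lower, with 1 member lower, since Egr1 (log2 fold change -1.64) had an adjusted p of 0.053. In aging Nr4a1 changed sign to -0.13 with the block. In overexpression Npas4 changed sign to -0.056 with median centring, -0.13 with edgeR, -0.18 with DESeq2 and -0.10 with edgeR without a limit, and Fosb to -0.056 with median centring and -0.039 with DESeq2. Without GFP controls 9905 and 9926 Junb was at 0.29, Nr4a1 at 0.11 and Egr3 at -0.44.

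With 1 library left out, knockdown calls ran from 99 to 210 higher and 121 to 227 lower, with 1 to 2 members called and a median of the members tested from -1.99 to -1.22, and overexpression calls from 0 to 1 higher. Signs changed with age for Nr4a1 (-0.32 to 0.62), Egr1 (-0.50 to 0.082), Egr3 (-0.46 to 0.14), Fos (-0.70 to 0.37), Bdnf (-0.22 to 0.0067), Fosb (-0.28 to 0.86) and Junb (-0.23 to 0.49), and in overexpression for Npas4 (-0.20 to 0.44), Fosb (-0.28 to 0.46), Bdnf (-0.48 to 0.12), Junb (-0.39 to 0.11) and Homer1 (-0.0064 to 0.44). Correlations planned for the knockdown table gave no value. At 48902 to 358560 reads a library, 8 of 10 members there were below the limit on the mean.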
